A study of Mus musculus with 16 samples.

Results

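The cytochrome P450 genes of families 1 to 3 were described in the livers of mice given cadmium (Cd), selenium (Se), both or neither. The members were the protein-coding rows of the deposited table whose symbol reads Cyp, a family digit from 1 to 3, a subfamily letter and a number, which gave 58 genes of 22005 protein-coding genes in the table. All mice were male wild-type C57BL/6J. The age given for them is 8 to 12 weeks, and 8 weeks at the start of the Se diet, and 4 mice were sequenced in each group. Control mice were numbered 27, 28, 29 and 30. The Cd mice (1, 2, 5 and 6) received CdCl2 at 1.25 mg/kg by daily intraperitoneal injection for 7 days, the Se mice (39, 40, 41 and 44) a diet with selenomethionine (SeMet) at 2 ppm for 3 months, and the Cd+Se mice (13, 14, 15 and 16) that diet with the injections in its last days. Values were TPM, a transcript level scaled by transcript length and to the same total in every library. The libraries were made from whole liver, so fewer cells of a type and less RNA per cell cannot be told apart in any value below.

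P450 enzymes of these families sit in the endoplasmic reticulum of hepatocytes and oxidize drugs, toxicants, steroids, retinoids and fatty acids. Each cycle of the enzyme takes electrons from NADPH through P450 oxidoreductase, the product of Por, and each enzyme holds a heme group. Their genes are known for responses to foreign compounds through the nuclear receptors PXR (Nr1i2) and CAR (Nr1i3) and the aryl hydrocarbon receptor (Ahr), and for a basal level set by liver factors such as HNF4A.

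Most of the 58 genes lie in tandem clusters, given here from the GENCODE M21 annotation (GRCm38), in which all 58 Ensembl identifiers were found. The 15 Cyp2c genes lie on chromosome 19, the 8 Cyp2d genes on chromosome 15 within 424 kb, the 7 Cyp3a genes on chromosome 5, the 8 Cyp2j genes on chromosome 4 and both Cyp1a genes on chromosome 9. Neighbours in a cluster are similar in sequence, and reads can be shared between them. Of the 31 members tested below, 12 had more than 10% of their 75-base transcript windows in common with another gene and 9 had none. The share was 57.1% for Cyp2c40 (most of it with Cyp2c69, at 32.7%). It was 36.0% for Cyp2c67 and 28.5% for Cyp2c68, most of it with Cyp2c40, at 24.7% and 23.2%. It was 26.7% for Cyp2d10, 25.5% for Cyp2a5 and 16.7% for Cyp2d9, and the levels of all these genes are therefore uncertain. Over the 16 mice Cyp2c69 averaged 0.346 TPM, Cyp2c40 9.18 TPM, Cyp2c67 217 TPM and Cyp2c68 127 TPM. The share was 3.81% for Cyp2d26, 3.66% for Cyp3a11, 2.96% for Cyp2e1, 0.527% for Cyp2c29 and 0 for Cyp2f2, Cyp2j5, Cyp2j9 and Cyp3a13.

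The stretches before the start sites of 3 of the 4 genes that differed both between Cd and control and between Cd+Se and Cd are shown beside those of a Cyp2c and a Cyp3a gene that passed neither test. Each is the 100 bases before the RefSeq start (GRCm38.p6), read 5′ to 3′ on the gene's strand. Capitals mark CAAAGTNCA, an element bound by HNF4A, and TATAAA, the TATA box, on either strand (TTTATA is TATAAA on the other strand). Cyp2d10 (chr15:82407195-82407294, minus strand), Cyp2c40 (chr19:39812815-39812914, minus), Cyp2c68 (chr19:39741102-39741201, minus), Cyp3a13 (chr5:137921620-137921719, minus) and Cyp3a25 (chr5:146009619-146009718, minus) read as follows.
Cyp2d10: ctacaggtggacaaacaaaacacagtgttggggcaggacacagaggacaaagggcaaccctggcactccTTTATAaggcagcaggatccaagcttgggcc
Cyp2c40: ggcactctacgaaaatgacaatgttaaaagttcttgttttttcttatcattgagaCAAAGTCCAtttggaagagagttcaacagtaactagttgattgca
Cyp2c68: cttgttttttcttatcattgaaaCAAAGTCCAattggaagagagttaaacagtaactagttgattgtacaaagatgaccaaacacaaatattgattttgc
Cyp3a13: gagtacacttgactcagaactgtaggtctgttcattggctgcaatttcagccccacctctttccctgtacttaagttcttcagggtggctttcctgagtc
Cyp3a25: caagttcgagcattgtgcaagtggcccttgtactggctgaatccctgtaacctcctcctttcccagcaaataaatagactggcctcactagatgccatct
Cyp2c40 and Cyp2c68 both held CAAAGTNCA, 45 and 77 bases before their starts, and shared a run of 21 bases. The changes of these genes were not compared with each other, and the part of the sequence in them was not tested. Cyp2d10 shared a run of 51 bases with its neighbour Cyp2d9, which holds the same TATA box. Cyp2d26, which also passed both tests and is not printed, held CAAAGTNCA 58 and TATAAA 31 bases before its start.

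RefSeq gave 250 bases before the start for 50 of the 58 members, 26 of them tested. Within those bases and on both strands, CAAAGTNCA was found in 8 of the 26 tested members and in 1.21% of all 27025 promoters of the table, and TATAAA in 15 of the 26 and in 12.97% of all. The 8 with CAAAGTNCA were Cyp2d26, Cyp3a11 and, from the Cyp2c cluster, Cyp2c37, Cyp2c40, Cyp2c50, Cyp2c67, Cyp2c68 and Cyp2c70. Genes of a cluster can share upstream sequence, so these matches are not independent. AGGTCA, read by nuclear receptors, was found in 7 of the 26 and in 13.8% of all promoters, and GCGTG, the core read by the aryl hydrocarbon receptor, in 2 of the 26 and in 28.2%. CAAAGTNCA was present in 2 of the 8 members that differed between Cd and control and in 6 of the 18 with a promoter that did not pass that test. A match of these letters is a description of the sequence and not evidence of binding.

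Levels among the members spanned several orders of magnitude. Of the 58, 31 averaged 1 TPM or more in the 16 libraries and were tested, and 27 lay under it, of which 8 (Cyp2b13, Cyp2b19, Cyp2b23, Cyp2c66, Cyp2j7, Cyp2j12, Cyp2w1 and Cyp3a16) were listed at 0 in every library. The members nearest to this limit were Cyp2c55, at a mean of 1.54 TPM, and Cyp2c39, at 0.938 TPM. Cyp2e1, which oxidizes ethanol and other small molecules, had the highest mean (3883 TPM), followed by Cyp2d10 (887 TPM), Cyp2d9 (711 TPM), Cyp3a11 (530 TPM) and Cyp2d26 (492 TPM). No Cyp2b member was tested. Cyp2b10, the classical target of CAR, had means from 0.0900 TPM in Cd mice to 0.378 TPM in Cd+Se mice. Cyp1a1 and Cyp1b1, classical targets of the aryl hydrocarbon receptor, had group means from 0.378 to 0.543 TPM and from 0.128 to 0.245 TPM. The spread over the 16 mice was narrowest for Cyp2a12, at a coefficient of variation of 7.63%, and among members above 100 TPM it was widest for Cyp3a11, at 72.5%.

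**Figure D1:**
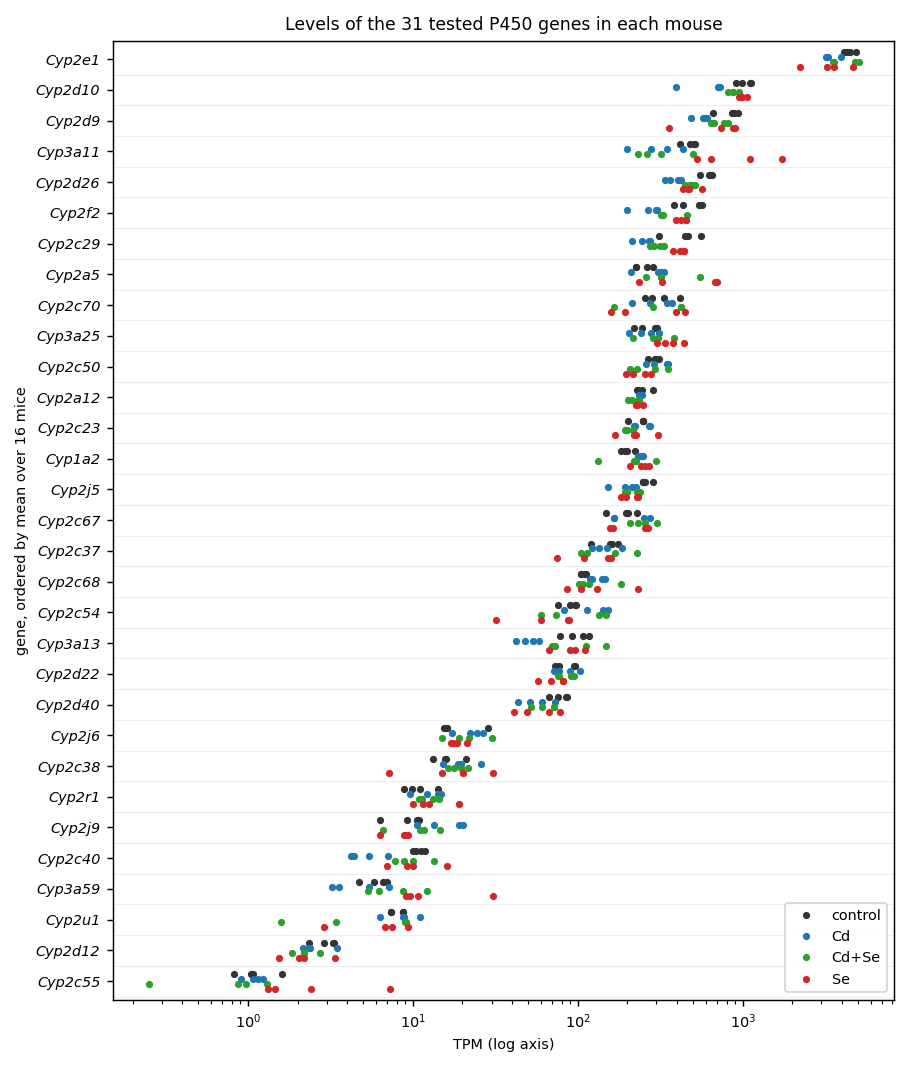
TPM on a log axis (x) of the 31 tested P450 genes (y, ordered by mean over 16 mice), with 1 point per mouse coloured by group. Cyp2e1 lies highest, with 2228 to 5067 TPM, and the points of Se mice reach from 527 to 1726 TPM for Cyp3a11.

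With TPM as deposited, the summed values of these genes were lower in Cd mice. The summed TPM of the 58 members averaged 11282 ± 702 (SD, n = 4) in the control group, 8843 ± 909 with Cd, 10423 ± 651 with both and 10654 ± 797 with Se. Cd mice lay between 7934 and 10103 TPM and control mice between 10263 and 11766 TPM, so these groups did not overlap. Cyp2e1 carried 39.2% of the sum in control mice and 38.8% in Cd mice. The sum of the 8 Cyp2d genes was 2658 ± 257 TPM in control and 1733 ± 264 TPM in Cd mice, without overlap, and 2237 ± 151 TPM in Cd+Se mice. The Cyp2c sum was 1868 ± 158 TPM in control and 1755 ± 219 TPM in Cd mice, which overlapped. These sums were not tested, and those of the subfamilies were not rescaled. Over the tested members with libraries centred on their medians, the sum was 10830 ± 781 TPM in control and 9865 ± 738 TPM in Cd mice.

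**Figure D2:**
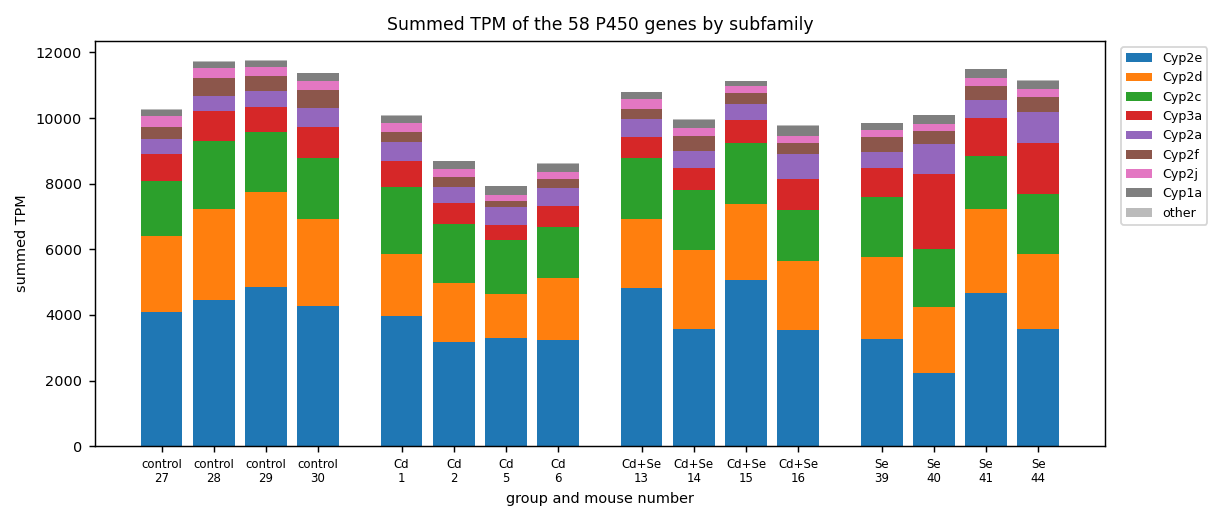
Summed TPM (y) of the 58 P450 genes in each mouse (x, by group and mouse number), stacked by subfamily. Cd mice 2, 5 and 6 have the lowest totals, with the Cyp2d part lower than in each control mouse, and Se mouse 40 has the smallest Cyp2e part and the largest Cyp3a part.

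To see which members changed with Cd, values were taken as log2(TPM + 1) and tested with limma in 11766 genes averaging 1 TPM or more, with Benjamini-Hochberg adjustment over all of these. For genes of few TPM the added 1 shrinks the fold change. Between Cd and control, 8 of the 31 tested members differed at an adjusted p under 0.05, against 30.8% of all genes tested. Of these, 7 fell, against 24.9% of all genes that were lower, and 1 rose, against 5.82% that were higher. The share of members that differed was thus close to that of all genes. The median log2 fold change was -0.04 over the 31 members and -0.17 over all genes. The Cd and control groups did not overlap in 11 members, against 34.2% of all genes.

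Cyp2d10 and Cyp2d26 belong to the subfamily of the human drug-metabolizing enzyme CYP2D6. Cyp2d26 (ENSMUSG00000022445, chr15:82790101-82794294) was 551, 632, 656 and 625 TPM in the control mice and 422, 365, 340 and 403 TPM in the Cd mice. Every Cd mouse lay below every control mouse. The log2 fold change was -0.69 (standard error, SE, 0.11, adjusted p = 0.000483 by limma). Cyp2d10 (ENSMUSG00000094806, chr15:82402846-82407195) was 914, 1123, 1111 and 997 TPM in the control mice and 733, 709, 397 and 719 TPM in the Cd mice, with mouse 5 far below the other Cd mice. Its log2 fold change was -0.73 (SE 0.16, adjusted p = 0.00358 by limma), and -0.52 without mouse 5, still past the threshold. Their neighbours did not pass the test. Cyp2d9, a gene known for its higher level in male mice, was 838 ± 122 TPM in control and 564 ± 53.2 TPM in Cd mice without overlap of the groups (log2 fold change -0.56, limma adjusted p = 0.0674). With the Cd and control mice alone in the model Cyp2d9 passed the threshold at the same fold change (limma adjusted p = 0.0125). Cyp2d22 was 85.2 ± 11.997 and 85.6 ± 13.8 TPM.

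In the Cyp2c subfamily, whose enzymes act on arachidonic acid, retinoids and drugs, 2 of 11 tested members fell, against 24.9% of all tested genes. Cyp2c29 (ENSMUSG00000003053, chr19:39269405-39330713) was 309, 559, 446 and 463 TPM in the control mice and 271, 215, 246 and 276 TPM in the Cd mice. The lowest control mouse, 27, lay only a little above the highest Cd mouse. The log2 fold change was -0.79 (SE 0.15, adjusted p = 0.00145 by limma). Cyp2c40 (ENSMUSG00000025004, chr19:39767071-39812814), which acts on arachidonic acid and is known for its higher level in female mice, was 11.8, 10.5, 9.99 and 11.1 TPM in the control mice and 7.11, 5.40, 4.41 and 4.19 TPM in the Cd mice. The groups did not overlap, and the log2 fold change was -0.94 (SE 0.21, adjusted p = 0.00380 by limma). The other 9 Cyp2c members did not pass the test. Among them, Cyp2c68 was 108 ± 3.52 TPM in control and 132 ± 13.8 TPM in Cd mice, and Cyp2c54 was 89.8 ± 9.52 and 122 ± 31.4 TPM, with a log2 fold change of 0.41 and a 95% interval from -0.27 to 1.09.

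Cyp2f2, the enzyme that activates naphthalene in mouse lung and liver, is the sole member of its subfamily here (ENSMUSG00000052974, chr7:27119909-27133660). It was 386, 547, 436 and 569 TPM in the control mice and 300.1, 304, 200 and 265 TPM in the Cd mice. No Cd mouse reached the lowest control mouse. The log2 fold change was -0.86 (SE 0.16, adjusted p = 0.00147 by limma).

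Cyp3a13 (ENSMUSG00000029727, chr5:137892932-137921619), a steroid and drug hydroxylase that lies apart from the other Cyp3a genes, was 107, 78.5, 92.8 and 117 TPM in the control mice and 53.6, 48.0, 42.1 and 58.6 TPM in the Cd mice. The Cd mice lay wholly below the control mice, with a log2 fold change of -0.95 (SE 0.22, adjusted p = 0.00510 by limma). The main hepatic member, Cyp3a11, a classical PXR target, was 477, 506, 416 and 511 TPM in the control mice and 436, 345, 198 and 279 TPM in the Cd mice. These groups overlapped and the difference did not pass the test (log2 fold change -0.66, 95% interval from -1.35 to 0.04, limma adjusted p = 0.138). With the Cd and control mice alone in the model it passed the threshold at the same fold change (limma adjusted p = 0.0392). Cyp3a25 was 264 ± 39.7 and 258 ± 45.4 TPM.

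The Cyp2j genes, whose enzymes form epoxides of arachidonic acid, moved in both directions. Cyp2j5 (ENSMUSG00000052520, chr4:96628773-96664154), the most abundant of them, was 286, 257, 249.99 and 248 TPM in the control mice and 226, 213, 153 and 194 TPM in the Cd mice, without overlap. Its log2 fold change was -0.42 (SE 0.13, adjusted p = 0.0227 by limma), a call that ended without Cd mouse 5 (-0.30), without control mouse 27 (-0.37) and with libraries centred on their medians (-0.20). Cyp2j9 (ENSMUSG00000015224, chr4:96568429-96591578) was the only member that rose. It was 6.32, 10.9, 10.6 and 9.20 TPM in the control mice and 19.2, 20.3, 13.4 and 10.7 TPM in the Cd mice, so that Cd mouse 6 lay within the control range. The log2 fold change was 0.70 (SE 0.23, adjusted p = 0.0324 by limma), and the call ended without control mouse 27 (0.55) or 30 (0.71) and without Cd mouse 1 (0.60) or 2 (0.58), and with no filter on low values.

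**Figure D3:**
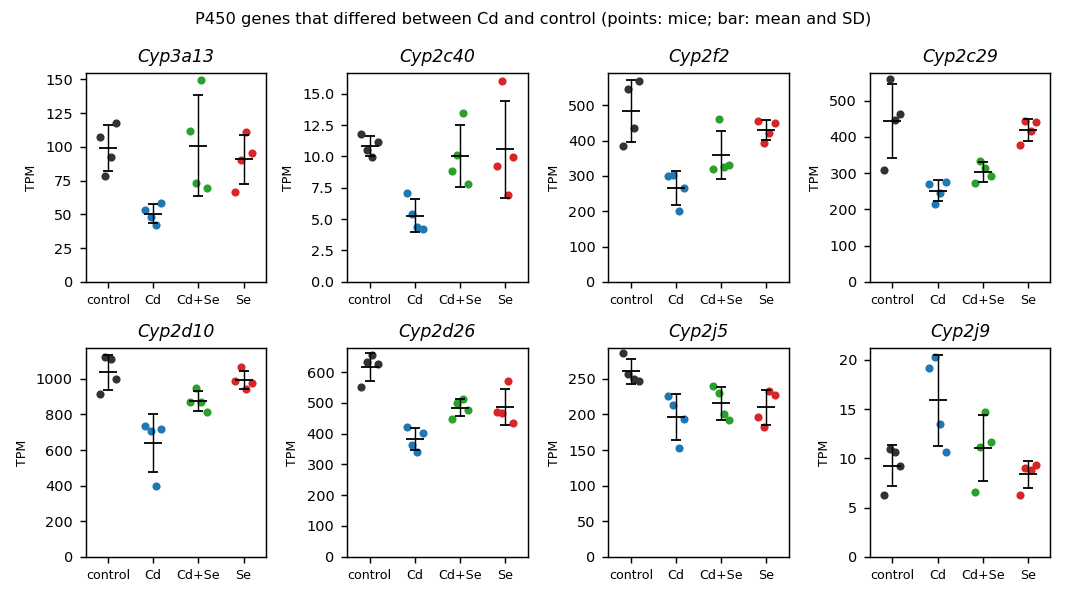
TPM (y, from 0) by group (x) of the 8 P450 genes that differed between Cd and control, with 1 point per mouse and a bar for the mean and SD of 4 mice. The Cd mice lie wholly below the control mice in all but Cyp2j9, where 3 Cd mice lie above the highest control mouse, at 10.9 TPM.

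Other abundant members did not pass the test. Cyp2e1 (ENSMUSG00000025479) was 4096, 4455, 4845 and 4274 TPM in the control mice and 3957, 3180, 3311 and 3247 TPM in the Cd mice. The groups did not overlap, yet the log2 fold change of -0.37 had a 95% interval from -0.76 to 0.02 (limma adjusted p = 0.142) in the model of all 4 groups. With the Cd and control mice alone in the model it passed the threshold at the same fold change. Cyp1a2, which oxidizes caffeine and aromatic amines, was 199.5 ± 17.1 TPM in control and 241 ± 8.10 TPM in Cd mice, also without overlap (log2 fold change 0.28, limma adjusted p = 0.245). Cyp2a5, the mouse coumarin hydroxylase, was 251 ± 31.2 and 293 ± 55.3 TPM, and Cyp2a12, a steroid hydroxylase, was 248 ± 25.8 and 240.1 ± 5.97 TPM. Cyp2r1, a vitamin D 25-hydroxylase, was 11.0 ± 2.35 and 12.7 ± 2.31 TPM, and Cyp2u1, which acts on long-chain fatty acids, was 8.03 ± 0.803 and 8.74 ± 1.93 TPM.

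The scaling of the libraries bears on directions. The median of all genes in Cd against control was -0.17 with TPM as deposited, -0.01 once quantiles were equalized and 0.05 with every library centred on its own median. The falls of Cyp2c29, Cyp2c40, Cyp2d10, Cyp2d26, Cyp2f2 and Cyp3a13 and the rise of Cyp2j9 passed the threshold under each of these scalings. Members called higher and lower numbered 1 and 7 as deposited, 2 and 7 with equal quantiles and 3 and 6 with centring, which added Cyp1a2 (0.50) and Cyp2r1 (0.42) to the rises. Of all genes, 5.82% were called higher and 24.9% lower as deposited, 14.5% and 19.3% with equal quantiles, and 19.2% and 15.3% with centring. In Cd+Se against Cd, 13.6% and 2.35% of all genes were higher and lower as deposited, 9.94% and 7.72% with equal quantiles, and 7.96% and 10.8% with centring.

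Some markers of other cells also differed between the groups. In Cd against control, 24.9% of all tested genes fell and 5.82% rose. The summed TPM of 6 Kupffer cell markers lay between 105 and 129 in control mice and between 35.0 and 54.4 in Cd mice, and all 6 fell. The sum of 8 monocyte and neutrophil markers lay between 53.6 and 67.4 in control, 71.7 and 92.2 in Cd and 110 and 189 in Cd+Se mice. Of the 6 tested, 4 were higher in Cd than in control. Of 6 endothelial markers 3 fell, with sums of 57.2 to 68.5 TPM in control and 35.5 to 53.6 TPM in Cd mice. The endothelial sums were 40.5 to 77.6 TPM in Cd+Se mice. Of 4 tested stellate cell markers 1 fell, while none of 5 erythroid markers or the 1 tested cholangiocyte marker passed the test. No lymphocyte marker reached 1 TPM. The sum of 7 hepatocyte markers, none of them at 0, was 55599 to 77371 TPM in control and 35521 to 62588 TPM in Cd mice. In Cd+Se mice it was 45809 to 67886 TPM. Of the 7, 2 fell with Cd, Hnf4a and Cps1, which are counted again below among the regulators and the periportal genes. The part of these cell markers in the P450 values was not tested.

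Some genes that serve the P450 cycle also differed between Cd and control. Por fell from 180 ± 16.1 TPM in control to 67.7 ± 1.63 TPM in Cd mice, with a log2 fold change of -1.39 (SE 0.26, adjusted p = 0.00146 by limma), and the Cd mice spanned only 65.9 to 69.6 TPM. Cyb5a, encoding cytochrome b5, which can pass an electron to some P450 enzymes, rose by a log2 fold change of 0.28 (limma adjusted p = 0.0452), a call that ended after quantile normalization (0.03) and without any 1 of the 8 mice (0.25 to 0.31). The other 4 tested genes of this list (Cyb5b, Cyb5r3, Pgrmc1 and Pgrmc2) did not pass. Of 10 genes of heme supply and breakdown, 3 fell and 2 rose, where 24.9% of all tested genes fell and 5.82% rose. Alas1, the first and rate-limiting enzyme of hepatic heme synthesis, fell from 962 ± 113 to 256 ± 25.2 TPM, with a log2 fold change of -1.91 (SE 0.24, adjusted p = 0.000161 by limma). Cpox (-1.01) and Urod (-0.44) also fell, and Ppox (0.48) rose. The call of Urod ended with centring (-0.22) and without Cd mouse 5 (-0.35) or 6 (-0.43) or control mouse 29 (-0.39), and that of Ppox without Cd mouse 1, 2 or 6 or control mouse 27, 29 or 30 (0.37 to 0.51). Hmox1, which breaks heme down, rose from 9.85 ± 1.23 to 18.02 ± 1.64 TPM, with a log2 fold change of 0.81 (limma adjusted p = 0.0211), a call that ended without control mouse 29 (0.73).

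Among 13 tested regulators of these genes, 5 fell and none rose in Cd against control, where 24.9% of all tested genes fell. Rxra, the shared partner of PXR and CAR, fell from 93.4 ± 3.97 to 44.8 ± 6.75 TPM, with a log2 fold change of -1.05 (SE 0.11, adjusted p = 5.01e-05 by limma). Hnf4a fell from 152 ± 11.0 to 86.6 ± 11.4 TPM (-0.81, limma adjusted p = 0.00173). Ppara, a receptor for fatty acids, fell by 1.15 on the log2 scale, Arnt, the partner of the aryl hydrocarbon receptor, by 0.66 and the liver factor Onecut1 by 2.40. The call of Onecut1 ended without Cd mouse 5 or 6 or any 1 control mouse (-2.48 to -2.15). Nr1i2 (29.6 ± 1.76 and 27.3 ± 4.09 TPM), Nr1i3 (132 ± 16.9 and 122 ± 20.1 TPM) and Ahr (9.75 ± 1.85 and 8.38 ± 1.16 TPM) did not pass the test, nor did Cebpa, Foxa2, Nfe2l2, Rxrb and Stat5b. None of 6 tested targets of the aryl hydrocarbon receptor outside the P450 genes (Gsta1, Nqo1, Tiparp, Ugt1a6a, Ugt1a6b and Ugt1a9) passed the test.

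Other oxidizing enzymes and marks of the lobule are given for comparison by their counts in Cd against control, where 24.9% of all tested genes fell and 5.82% rose. In the Cyp4 family, fatty acid hydroxylases, 3 of 13 tested genes fell (Cyp4f15, Cyp4f17 and Cyp4v3), and of 7 P450 genes of sterol and bile acid synthesis 1 fell, Cyp7a1, the rate-limiting enzyme of bile acid synthesis (98.9 ± 26.4 and 17.2 ± 8.89 TPM). Of 7 other tested microsomal oxygenases and hydrolases, Fmo2 and Fmo5 fell. Among 12 genes of pericentral hepatocytes, the zone where many P450 genes are highest, 3 fell and 2 rose, and of 11 periportal genes 1 fell, Cps1. None of 9 genes with a known higher level in male liver passed the test, and of the 2 tested P450 genes with a known higher level in females Cyp2c40 fell.

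To see what the Se diet changed under Cd, the Cd+Se mice were compared with the Cd mice. Of the 31 tested members 4 differed, against 15.9% of all genes, and all 4 were higher in Cd+Se, against 13.6% of all genes that were higher and 2.35% that were lower. The median log2 fold change was 0.05 over the members and 0.17 over all genes. The groups did not overlap in 7 members, against 19.2% of all genes. This comparison shares the 4 Cd mice with the comparison of Cd and control.

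Cyp3a13 was 112, 73.0, 149 and 69.3 TPM in the Cd+Se mice, each above the highest Cd mouse (58.6 TPM). The log2 fold change was 0.92 (SE 0.22, adjusted p = 0.0154 by limma), and 0.84 without Cd mouse 5, where the call ended, as it did with only the groups compared. Cyp2c40 was 8.80, 10.1, 13.5 and 7.79 TPM, again above every Cd mouse, with a log2 fold change of 0.81 (SE 0.21, adjusted p = 0.0192 by limma). Its call ended without Cd mouse 5 (0.75), Cd+Se mouse 14 (0.80) or Cd+Se mouse 15 (0.67) and with only the groups compared.

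Cyp2d10 was 871, 948, 870.0 and 815 TPM in the Cd+Se mice, above all Cd mice and, in 3 mice of 4, below the lowest control mouse (914 TPM). The log2 fold change was 0.49 (SE 0.16, adjusted p = 0.0469 by limma). It fell to 0.28 without Cd mouse 5, whose 397 TPM was the lowest of all 16 mice, and the call also ended without any 1 of the 4 Cd+Se mice (0.46 to 0.53), with centring (0.30), with no filter on low values and with only the groups compared (both 0.49). Cyp2d26 was 447, 499, 512 and 478 TPM, between the Cd and the control mice without overlap with either. Its log2 fold change was 0.34 (SE 0.11, adjusted p = 0.0416 by limma), a call that ended without Cd mouse 2, 5 or 6 or Cd+Se mouse 14, 15 or 16 (0.29 to 0.37). It also ended with equal quantiles (0.31), with centring (0.15), with no filter and with only the groups compared (both 0.34).

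Members lower in Cd that did not pass this test were Cyp2f2 (319, 463, 326 and 330 TPM in Cd+Se mice, each above the highest Cd mouse), with a log2 fold change of 0.43 (limma adjusted p = 0.0795), Cyp2c29 (273, 335, 314 and 291 TPM), with 0.27 (0.217), and Cyp2j5 (239, 230, 200.2 and 192 TPM), with 0.14 (0.468). Cyp2j9 was 6.58, 11.1, 14.7 and 11.6 TPM, with a log2 fold change of -0.50 (limma adjusted p = 0.149). It passed the threshold as lower after quantile normalization (-0.66) and after centring (-0.69). The lowest log2 fold change was that of Cyp2u1, -0.72 (limma adjusted p = 0.182), with 3.42, 8.92, 1.59 and 9.04 TPM in the Cd+Se mice, so that 2 of the 4 lay below every Cd mouse.

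**Figure D4:**
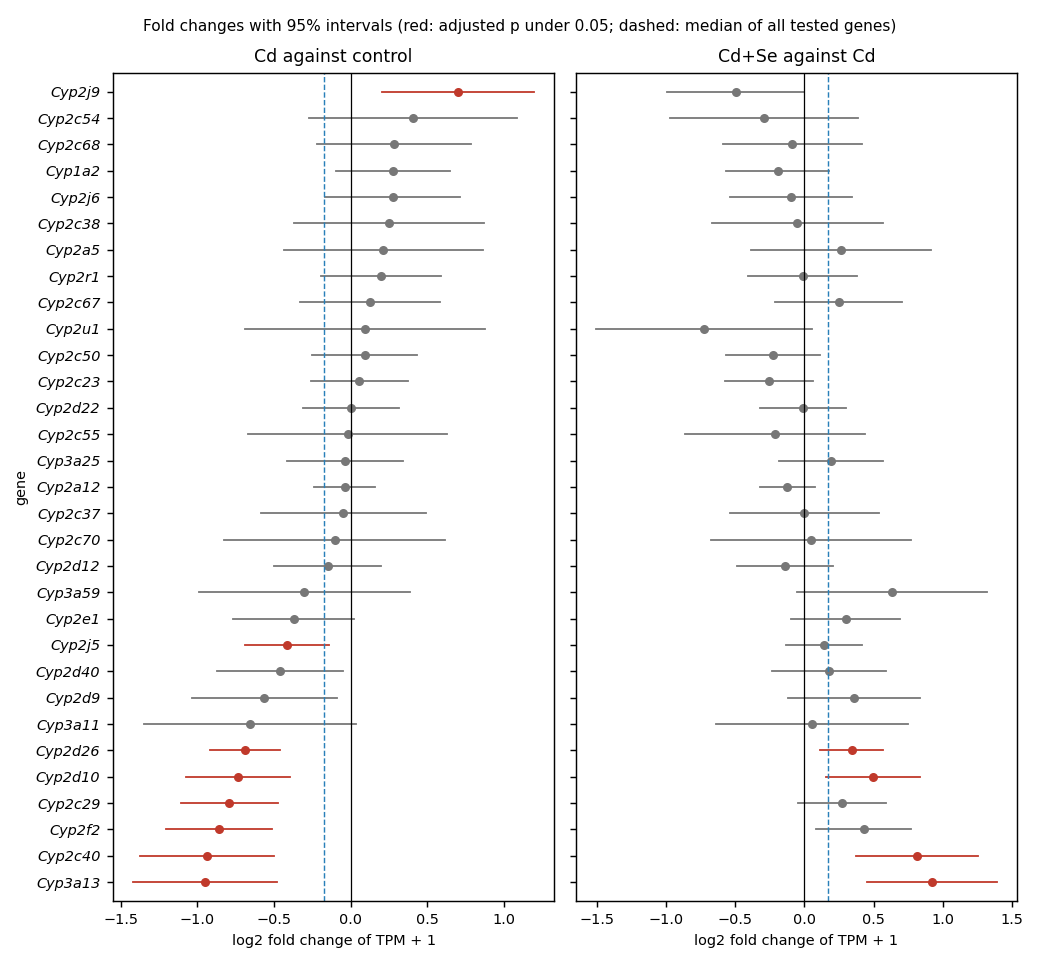
Log2 fold changes of TPM + 1 (x) with 95% intervals from limma for the 31 tested members (y), Cd against control on the left and Cd+Se against Cd on the right, red where the adjusted p was under 0.05. Of the 7 members that fell with Cd, Cyp3a13, Cyp2c40, Cyp2d10 and Cyp2d26 are red on the right, and both panels use the same 4 Cd mice.

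The genes of the P450 cycle in Cd+Se mice were higher than in Cd mice for Por (168 ± 72.3 TPM, log2 fold change 1.20, limma adjusted p = 0.0117), Alas1 (586 ± 185 TPM, 1.15, limma adjusted p = 0.0101) and Hmox1 (42.5 ± 16.8 TPM, 1.11, limma adjusted p = 0.0122), and lower for Alad (-0.51). Hmox1 was thus higher in Cd+Se than in Cd, which itself was above control. Of 13 tested regulators, Arnt (0.72), Hnf4a (0.58), Ppara (0.90) and Rxra (0.72) were higher, where 13.6% of all tested genes were higher. Nr1i2 and Nr1i3 did not pass the test. The call of Hnf4a ended without Cd mouse 5 (0.48) or Cd+Se mouse 14 (0.60) or 15 (0.44).

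Between Cd+Se and control, 0 of the 31 members differed by limma at an adjusted p under 0.05, against 0.484% of all genes. An unadjusted p under 0.05 was reached by 4 of the 31 (Cyp2c29, Cyp2d26, Cyp2f2 and Cyp2j5, all lower), against 1286 of the 11766 genes tested. Cyp2d26 and Cyp2j5 were the members whose groups did not overlap. The share of all genes without overlap was not taken here, so this is not read as a result about the members. Cyp2c29 differed (-0.69) when control mouse 27 was left out. The largest log2 fold changes were those of Cyp2a5 (0.48, 95% interval from -0.17 to 1.12) and Cyp2u1 (-0.63, from -1.41 to 0.15).

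In mice given the Se diet alone, no member differed from control by limma at an adjusted p under 0.05, as was so for 0% of all genes. An unadjusted p under 0.05 was reached by 9 of the 31 members, against 3.86% of all genes. Of the 9, Cyp2a5, Cyp2c55, Cyp3a11, Cyp3a25 and Cyp3a59 were higher and Cyp2d26, Cyp2d40, Cyp2e1 and Cyp2j5 lower. Without Se mouse 40 only 2 of the 31 reached it. Every Se mouse lay above every control mouse in Cyp3a11, Cyp3a25 and Cyp3a59, and below every control mouse in Cyp2j5. The share of all genes without overlap was not taken for this comparison, so this is not read as a result about the members. Cyp3a11 and Cyp3a59 varied widely among Se mice.

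Cyp3a11 was 527, 1726, 639 and 1103 TPM in Se mice 39, 40, 41 and 44, against at most 511 TPM in control mice. Its log2 fold change was 0.91 (SE 0.33, adjusted p = 1 by limma), and 0.59 without mouse 40. Cyp3a59, a neighbour with sequence in common with Cyp3a25, was 9.59, 30.5, 9.07 and 10.8 TPM, with at most 6.96 TPM in control mice, and Cyp3a25 was 302, 443, 381 and 339 TPM, with at most 301 TPM. Their log2 fold changes were 1.02 and 0.47, and 0.63 and 0.37 without mouse 40. Cyp2a5 was 236, 676, 326 and 700.1 TPM, so that mice 40 and 44 stood above the other 14 mice, of which the highest was Cd+Se mouse 16 at 551 TPM. Cyp2c55 was 1.45, 7.22, 1.32 and 2.41 TPM, with 0.82 to 1.60 TPM in control mice. In the opposite direction, Cyp2e1 was 3267, 2228, 4682 and 3582 TPM, with mouse 40 the lowest of all 16 mice, and Cyp2c54, with the most negative log2 fold change (-0.52), was 59.9, 31.9, 87.2 and 89.0 TPM. Over the 31 tested members, mouse 40 was the highest of the 16 mice in 8 and the lowest in 7. Cd mouse 5 was the lowest in 8 and the highest in 0.

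**Figure D5:**
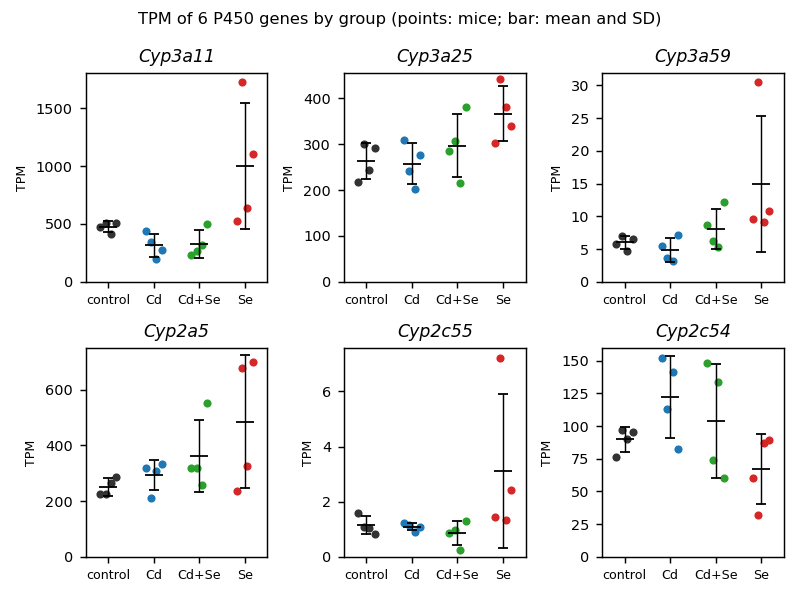
TPM (y, from 0) by group (x) of 6 P450 genes, with 1 point per mouse and a bar for the mean and SD of 4 mice. Se mouse 40 reaches 1726 TPM for Cyp3a11 and 30.5 TPM for Cyp3a59 and has the lowest value for Cyp2c54, 31.9 TPM.

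Among mice on the Se diet, Cd+Se and Se differed in 1 member, against 0.714% of all genes. Cyp3a11 was 231, 262, 321 and 497 TPM in the Cd+Se mice, each below the lowest Se mouse, with a log2 fold change of -1.51 (SE 0.33, adjusted p = 0.0442 by limma). The call ended without Se mouse 40 (-1.19), 41 (-1.67) or 44 (-1.41), and without Cd+Se mouse 13 (-1.36) or 14 (-1.42). It also ended with no filter on low values, with a mean of at least 5 TPM and with only the groups compared. Cyp2c54 had the highest value, 0.63 (95% interval from -0.04 to 1.31). The 4 members that were higher in Cd+Se than in Cd had log2 fold changes of 0.10 (Cyp3a13), -0.04 (Cyp2c40), -0.18 (Cyp2d10) and 0.00 (Cyp2d26) here.

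Whether the effect of Cd differed with the Se diet was tested as the interaction of Cd and Se, for which 1 member passed, against 1.04% of all genes. For Cyp2d26 the log2 fold change of Cd was -0.69 on the normal diet and 0.00 on the Se diet, a difference of 0.69 (SE 0.15, adjusted p = 0.0453 by limma). This call ended in 14 of the 22 alternatives, with no filter on low values, with centring (0.50) and without any 1 mouse other than Cd mouse 1, Cd+Se mouse 13 and Se mice 40 and 41 (0.63 to 0.74), and the highest adjusted p by limma was 0.105. Its level in Se mice was 471, 467, 570 and 435 TPM, lower than in control mice by 0.35 on average on the log2 scale, so that Cd+Se and Se mice averaged 484 ± 28.5 and 486 ± 58.1 TPM. The largest difference was that of Cyp3a13, 1.05 (95% interval from 0.39 to 1.72), which did not pass (limma adjusted p = 0.0916). The most negative was that of Cyp2c55, -0.96 (limma adjusted p = 0.218), and Cyp2e1 had 0.71 (limma adjusted p = 0.148).

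The table's own pathway annotation placed 35 members in steroid hormone biosynthesis, of which 21 were tested and 5 fell with Cd, and 27 in arachidonic acid metabolism, of which 15 were tested, 3 fell and 1 rose. Retinol metabolism held 30 members, with 16 tested and 3 lower. Of all tested genes, 24.9% fell and 5.82% rose in Cd against control. Each of the pathway counts mixes the same genes, since most P450 genes carry several of these terms.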

How the data were processed

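Liver poly(A) RNA of 16 mice was sequenced on an Illumina NovaSeq. The authors deposited 1 table of TPM with 1 column per mouse, although the titles name a pair of repeats for each mouse; how these were joined is not stated. The submitters' processing notes name fastp, HISAT2 and StringTie without versions, and GRCh38, a human build, while the rows are mouse Ensembl genes. TPM keep no depth, so it is unknown, and precision rests on 4 mice per group.

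Genes averaging 1 TPM or more (11766) were fitted as log2(TPM + 1) with limma 3.58.1 (R 4.3.3), in 1 model over the 4 groups with an intensity trend, Benjamini-Hochberg adjustment and a threshold of 0.05. The labels name no batch. The fit was tested on simulated data. Alternatives were a pseudocount of 0.1, no filter, a mean of at least 5 TPM, quantile normalization, centring, no trend, only the groups compared, and leaving out each mouse. Sequence windows of 75 bases came from GENCODE M21 and promoters from RefSeq (GRCm38.p6).

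The members and gene lists were chosen with earlier results of these data known, and the motifs and the count at an unadjusted p after the values were seen. Named were the 10 highest members, the Cyp1 genes, the highest of each subfamily, those past the threshold, the extremes of each comparison, those nearest the filter, and the redox, regulator and aryl hydrocarbon receptor lists, of which 1 regulator is not reported here. Other genes were named after their values were seen.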

Additional observations from a re-analysis of the deposited data

Results flagged for a closer look

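In 124 groups of 4 mice (31 tested members in each of 4 groups), 7 had a single mouse whose gap to the nearest other, as a share of the group's range, was above Dixon's 95% critical value; chance flags about 1 in 20 groups. In control mouse 27, Cyp2c23 had a share of 0.957 (202 TPM, with 247.4 to 249.5 TPM in the other control mice) and Cyp2j6 a share of 0.952 (28.4 TPM, with 15.5 to 16.1 TPM). In Cd mouse 1, Cyp2e1 had a share of 0.832 (3957 TPM, with 3180 to 3311 TPM in the other Cd mice) and Cyp2d12 a share of 0.832 (3.47 TPM, with 2.16 to 2.38 TPM). Cyp2d10 in Cd mouse 5 had a share of 0.927 (397 TPM, with 709 to 733 TPM). Cyp2f2 in Cd+Se mouse 14 had a share of 0.927 (463 TPM, with 319 to 330 TPM in the others). Cyp3a59 in Se mouse 40 had a share of 0.921 (30.5 TPM, with 9.07 to 10.8 TPM in the others). The effect of Cd on Cyp2d26 differed between the diets by 0.69 on the log2 scale (limma adjusted p = 0.0453).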

How the results depend on the processing

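The falls of Cyp2c29, Cyp2c40, Cyp2d10, Cyp2d26, Cyp2f2 and Cyp3a13 between Cd and control kept their direction and call in each of the 15 alternatives run. No alternative dealt with reads shared between genes, which leaves the levels of Cyp2c40 and Cyp2d10 uncertain. The count of 8 members became 11 with only the groups compared and 6 to 9 without 1 mouse. Between Cd+Se and Cd the 4 members became 2 without a filter, 0 with only the groups compared and 0 to 4 without 1 mouse (0 without Cd mouse 5). Between Cd+Se and Se the 1 member became 0 without a filter, with a mean of at least 5 TPM and with only the groups compared, and 0 to 1 without 1 mouse. For the interaction the 1 member became 0 without a filter and after centring, and 0 to 2 without 1 mouse (2 without Se mouse 40, Cyp2d26 and Cyp2c40). Between Cd+Se and control the 0 members became 0 to 1. Between Se and control the 9 members at an unadjusted p under 0.05 became 2 to 10 without 1 mouse. Without Cyp2e1 the summed TPM were 6864 in control, 5419 in Cd, 6172 in Cd+Se and 7214 in Se mice, and over the tested members after centring they were 10830, 9865, 10191 and 10200. The direction of Cyp2j5 in Cd+Se against Cd turned after centring (-0.052). The cause of these changes was not tested, except that leaving out mice or groups also leaves fewer samples. No paired analysis was possible because the groups share no mouse numbers.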
